A study of Mus musculus with 36 samples.

Results

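The 9 genes followed here are regulators of T cell fate and of Notch signalling, read in mouse B cell progenitors: the receptor gene Notch1, the Notch targets Hes1 and Dtx1, the T lineage transcription factors Gata3, Tcf7, Bcl11b and Runx3, and Id2 and Id3. They were taken by symbol from 3 tables of normalized RNA-seq read counts, and all 9 were found in each table, among 46078, 35896 and 18721 rows. Notch1 is cleaved when a neighbouring cell presents a ligand, and its intracellular part enters the nucleus, joins the DNA-binding protein RBPJ and switches on target genes. In a lymphoid progenitor this signal starts the T cell programme, in which Gata3 and Tcf7 act early and Bcl11b later. The B cell programme rests on E proteins and on Pax5, a factor that both activates B cell genes and represses genes of other lineages. Id proteins bind E proteins and keep them off DNA.

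Each of the 3 tables held 8 libraries of polyadenylated RNA, in groups of 2. The first table covered IgM-negative B220+ B cell progenitors of the CD43+ (pro-B) and the later CD43- (pre-B) stage, sorted from the bone marrow of adult 129Sv mice, either wild type or Sirt7-/-, with 1 pro-B and 1 pre-B library from each mouse. Sirt7 encodes a nuclear deacetylase, and the deletion was in the germline, so every cell of the mouse carried it. The second table covered B cell progenitors of Pax5-/- mice on a C57BL/6 background, transduced with a retrovirus that carried no insert (EV), wild-type Pax5 (Pax5 WT) or Pax5 in which 1 lysine was replaced, by glutamine in K198Q and by arginine in K198R. Glutamine resembles acetyl-lysine, and arginine cannot be acetylated. The labels give bone marrow as the source of these cells and the study's methods give fetal liver. The third table covered cultured pro-B cells, namely wild-type cells with EV and Sirt7-/- cells with EV, Pax5 WT or K198R, which the study's methods place on the 129Sv background. All transduced cells were grown on inactivated OP9 stromal cells with IL-7, SCF and FLT3-L and sorted by a marker on the virus. OP9 cells are of mouse origin, so RNA from residual feeder cells would be counted with that of the progenitors. Chromatin immunoprecipitation of Pax5 in the Pax5-/- cells gave 6 peak lists, 2 for each form of Pax5.

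The sorted libraries held 50004827 to 55536608 reads, while the other tables summed to 28865461 to 30520853 and 27814214 to 30160880 normalized counts per library, with the read depth not recoverable. The labels were checked against the genes they name. In sorted cells Sirt7 was at 2692 and 2533 normalized counts in pro-B libraries of wild-type mice and at 363 and 366 in those of Sirt7-/- mice. Pre-B libraries gave 5613 and 5219 against 1066 and 821. In culture Sirt7 was at 1324 and 905 in wild-type cells and between 325 and 407 in the 6 Sirt7-/- libraries. Thus Sirt7 was lower in every Sirt7-/- library than in its wild-type counterparts, although not at 0. Pax5 was at 2201 and 2103 normalized counts in Pax5-/- cells with EV, 6458 and 6152 with Pax5 WT, 8918 and 8963 with K198Q and 21162 and 16610 with K198R. The 3 forms of Pax5 were therefore not compared at equal transcript levels. The Pax5 transcript of K198R cells exceeded that of Pax5 WT cells by 1.57 log2 units (SE 0.118; limma, adjusted p = 0.0029) and that of K198Q cells by 1.07 log2 units (SE 0.118; limma, adjusted p = 0.00526). In the third table Pax5 ranged from 23862 normalized counts in a wild-type EV library to 45426 in a K198R library, since these cells have their own Pax5.

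The B lineage marker list, whose most abundant gene was Cd79a, summed to between 659660 and 771680 normalized counts in sorted pre-B libraries and to between 430287 and 469699 in sorted pro-B libraries. Of 16 T cell markers, all were listed in the sorted table. They summed to 8912 to 9822 normalized counts in the 4 pro-B libraries and to 3336 to 4389 in the 4 pre-B libraries, and Lck, a kinase also used by B cells, was the most abundant in all 8. The CD3 chain genes Cd3e and Cd3g, which define T cells, were at 0 in all 4 pre-B libraries, and Cd3e was at 10.1 to 44.8 in pro-B libraries. Mouse 2 of the Sirt7-/- group stood apart from the other 3 mice. Its markers of NK and innate lymphoid cells summed to 1732 normalized counts in pre-B cells, against 188 to 377 in the other 3 pre-B libraries, and to 2615 in pro-B cells, against 971 to 1073. Its erythroid markers summed to 72024 and 47744 in pre-B and pro-B cells, against at most 16280 elsewhere, while its myeloid markers summed to 9531 in pro-B cells, against 24513 to 33570. Its T cell markers summed to 4389 in pre-B cells, against 3336 to 3836, with 4 of the 16 at 0, against 7 or 8. Lck made up 3161 of that sum, against 2961 to 3384. In pro-B cells its T cell sum of 8912 was the lowest of the 4 libraries. The 4 plasmacytoid dendritic cell markers summed to 1876 in its pre-B library, within the 1717 to 2705 of the other 3, and to 1093 in its pro-B library, against 417 to 501. In that list Cox6a2, the most abundant gene in all 4 pre-B libraries, was lowest in mouse 2 (1229 against 1711 to 2669), and Siglech was at 497 in its pre-B library and at 3.3 or less in the other 3. The member values that rest on this mouse are therefore given with and without it.

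Pax5 peaks were then sought at each gene. Each list was called in 1 replicate against its input. Its length was 10646 or 11830 peaks for Pax5 WT, 3750 or 3957 for K198Q and 12158 or 13997 for K198R. The peak names inside the second K198R list carry a different replicate number from its label, and the list was used as labelled. A gene was counted as bound where both lists of a form held a peak in the gene body or within 10 kb of it. By this count 6 of the 9 genes were bound by Pax5 WT (Notch1, Tcf7, Hes1, Dtx1, Bcl11b and Id3), against 32.6% of 21938 protein-coding genes. K198Q gave 3 genes (Notch1, Tcf7 and Id3), against 12.7% of protein-coding genes, and K198R gave 7, the 6 genes of Pax5 WT and Id2, against 36.5%. Notch1, Tcf7 and Id3 had a peak in all 6 lists, against 12.4% of genes; for Id3 no single peak was in all of them. Gata3 had no peak in any list, and Runx3 had peaks only in the second lists of Pax5 WT and K198R. Within 2 kb of an annotated start site the counts were 3 genes for Pax5 WT, 0 for K198Q and 4 for K198R, against 20.5%, 7.10% and 24.4% of protein-coding genes.

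Notch1 lies on chromosome 2 (mm10, chr2:26457903-26516663, minus strand). A single peak near its 5′ end was in all 6 lists, with a fold enrichment over input of 8.76 and 4.999 for Pax5 WT, 5.13 and 4.14 for K198Q and 7.24 and 9.32 for K198R. It falls in an intron of the longest annotated transcript, 3145 bases into the gene, and at position -9696 from the nearest RefSeq start. Tcf7 (chr11:52252371-52283014, minus strand) had an intron peak in all 6 lists, 14.1 kb inside the nearest start site. Its enrichment was 8.25 and 13.0 for Pax5 WT, 7.24 and 6.24 for K198Q and 8.71 and 13.0 for K198R. A further Tcf7 peak, upstream of the start site at position -352, was in both lists of Pax5 WT (3.38 and 7.05) and of K198R (7.24 and 5.55) and in neither list of K198Q. Bcl11b (chr12:107910403-108003602, minus strand) had an intron peak in 5 lists, at 11.7 and 8.75 for Pax5 WT, 6.69 in the second K198Q list and 7.38 and 9.22 for K198R. Hes1 lies at chr16:30064384-30067796 and Dtx1 at chr5:120680202-120711927, Gata3 at chr2:9857078-9890034 and Runx3 at chr4:135120652-135177990, and Id2 at chr12:25093799-25097140 and Id3 at chr4:136143497-136145755 (GENCODE M21). Lists of unequal size differ in how many weak peaks they reach, so the absence of a K198Q peak is not a measured absence of binding.

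The sequences of these 4 peaks are shown as examples: the Notch1 and Tcf7 intron peaks are those of the 9 genes found as a single peak in all 6 lists, the Tcf7 promoter peak lies near a start site, and Bcl11b marks T cell commitment. The Hes1, Dtx1, Id2 and Id3 genes also had peaks in lists of every form of Pax5, which are not printed. Each is 300 bases of the RefSeq mm10 assembly centred on the median summit, given 5′ to 3′ on the strand of the gene. Capitals mark the span from the lowest to the highest summit over the lists that held the peak, which was 159, 35, 96 and 72 bases in the order shown.
Notch1 intron, chr2:26513368-26513667: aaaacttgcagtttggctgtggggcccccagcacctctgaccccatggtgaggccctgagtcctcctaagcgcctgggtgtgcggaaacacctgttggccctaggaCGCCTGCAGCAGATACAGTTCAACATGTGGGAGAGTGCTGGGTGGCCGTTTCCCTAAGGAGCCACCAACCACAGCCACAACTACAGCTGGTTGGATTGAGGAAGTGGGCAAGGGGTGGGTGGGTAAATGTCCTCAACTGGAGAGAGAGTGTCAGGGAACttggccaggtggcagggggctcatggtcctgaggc
Tcf7 intron, chr11:52268316-52268615: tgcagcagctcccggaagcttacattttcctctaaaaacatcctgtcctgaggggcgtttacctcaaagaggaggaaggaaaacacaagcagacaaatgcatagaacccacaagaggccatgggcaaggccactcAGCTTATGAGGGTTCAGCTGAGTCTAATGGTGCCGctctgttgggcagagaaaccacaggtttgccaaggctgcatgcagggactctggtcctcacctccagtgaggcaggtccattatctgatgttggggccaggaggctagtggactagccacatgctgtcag
Tcf7 promoter, chr11:52283216-52283515: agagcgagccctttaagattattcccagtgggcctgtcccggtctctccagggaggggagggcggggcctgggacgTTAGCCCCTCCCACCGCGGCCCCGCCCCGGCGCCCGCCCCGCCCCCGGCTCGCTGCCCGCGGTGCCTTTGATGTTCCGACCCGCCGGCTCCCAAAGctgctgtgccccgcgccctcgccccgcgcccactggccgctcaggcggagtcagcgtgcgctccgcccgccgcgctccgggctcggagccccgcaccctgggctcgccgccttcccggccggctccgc
Bcl11b intron, chr12:107969177-107969476: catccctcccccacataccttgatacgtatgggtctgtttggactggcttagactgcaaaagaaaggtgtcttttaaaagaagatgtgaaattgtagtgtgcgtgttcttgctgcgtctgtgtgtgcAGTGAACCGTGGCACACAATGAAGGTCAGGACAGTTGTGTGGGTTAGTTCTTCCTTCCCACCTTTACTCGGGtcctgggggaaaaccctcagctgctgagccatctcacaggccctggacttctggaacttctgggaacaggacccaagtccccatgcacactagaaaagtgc
Both strands were searched for 3 short motifs. GCGTGAC, a core of the Pax5 site, was in none of the 4 windows, and it was in 5.13% of 20262 windows of the same length around all peaks. Its shorter form GCGTG occurred 1 time each in the Tcf7 promoter and Bcl11b windows and was in 42.4% of all windows. TGGGAA, the RBPJ motif, occurred 1 time in the Tcf7 promoter window and 2 times in the Bcl11b window, and was in 22.3% of all windows. These matches describe the letters of each window.

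**Figure D1:**
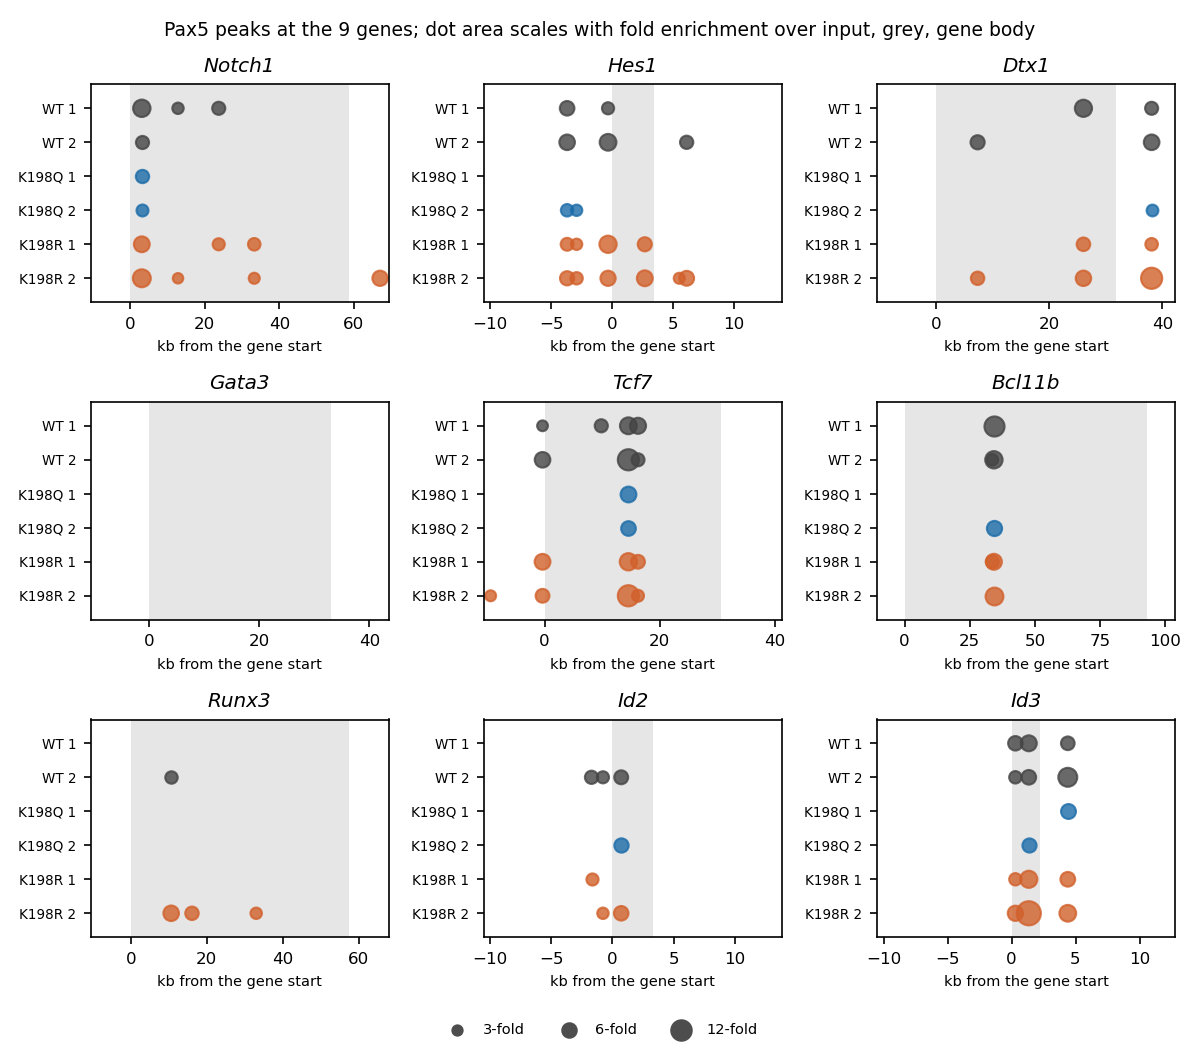
Pax5 peaks at the 9 genes. The x axis is the distance in kb from the gene start along the gene, each row of dots is 1 of the 6 peak lists, dot area scales with fold enrichment over input and grey marks the gene body; Gata3 has no dot, and the Notch1 peak at 3145 bases and the Tcf7 intron peak at 14548 bases appear in all 6 lists.

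Compared within one group per kb of exon sequence, the 9 genes ranged widely. In wild-type pro-B cells the mean level was 1367 normalized counts per kb for Id3, 1033 for Runx3, 822 for Hes1, 502 for Notch1 and 326 for Tcf7. Dtx1 followed at 124, Id2 at 88.8, Gata3 at 17.8 and Bcl11b at 3.68. In wild-type pre-B cells the order changed, with Id3 at 939 per kb, then Dtx1 at 768, Notch1 at 749, Runx3 at 561 and Hes1 at 177. Below these came Id2 at 82.8, Tcf7 at 35.6, Gata3 at 1.18 and Bcl11b at 0. Thus Dtx1 moved from the sixth place to the second. Neighbours in the order were apart in pro-B cells in both mice, whereas in pre-B cells Dtx1 overlapped both Id3 and Notch1. In Pax5-/- cells with EV, Runx3 led at 1234 per kb, followed by Notch1 at 893, Id2 at 526, Hes1 at 304 and Id3 at 135, with Tcf7, Gata3, Dtx1 and Bcl11b all at 20.3 or less. In cultured wild-type pro-B cells Id3 (1062 per kb) and Hes1 (436) were above Runx3 (263), Id2 (168) and Notch1 (127), and the other 4 genes were at 25.2 or less. There Hes1, Runx3, Id2 and Notch1 overlapped as neighbours. The 3 tables were normalized separately, so levels were not compared between them.

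The first question was how these genes change from the pro-B to the pre-B stage. In wild-type cells 8 of the 9 genes passed the test, against 40.2% of 17649 genes. Of the 8, 2 were higher in pre-B cells, as were 18.1% of all genes, and 6 lower, as were 22%. One of the 6, Bcl11b, passed the filter on low values only through the 2 wild-type pro-B libraries, so its place in this count is no support for a change. Since that share is high, a call here is a common event, and the size of the changes is what sets members apart from each other. The median over the 9 genes was -0.88 log2 units, beside -0.04 over all genes tested. In bulk samples, fewer cells of a type and less RNA per cell cannot be told apart, and this holds for each comparison given here. Fold changes are on the scale of log2(normalized count + 1).

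Notch1, the receptor, was at 7367 and 6923 normalized counts in pro-B libraries and at 11042 and 10274 in pre-B libraries. Its rise was 0.58 log2 units (SE 0.0854; limma, adjusted p = 0.0022), and the groups did not overlap. Dtx1, which encodes a ubiquitin ligase that acts on Notch and is a Notch target, had 706 and 603 at the pro-B stage and 3453 and 4640 at the pre-B stage. It rose by 2.62 log2 units (SE 0.198; limma, adjusted p = 0.000238), the largest rise among the 9 genes. Hes1, a repressor induced by Notch, went the other way. It went from 1583 and 1766 normalized counts in pro-B libraries to 296 and 425 in pre-B libraries and fell by 2.23 log2 units (SE 0.214; limma, adjusted p = 0.000452). The receptor and these 2 targets therefore did not move together: the groups were apart for all 3 genes, as for 72.6% of all genes, but Hes1 was lower where Notch1 and Dtx1 were higher. None of these 3 calls was lost when any 1 library was left out.

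Of the 9 genes, the 4 T lineage factors were lower in wild-type pre-B cells, whereas 17 other T lineage factors went both ways (4 higher and 5 lower of 16 tested, median 0.12 log2 units). Tcf7, which encodes TCF-1, had 736 and 974 normalized counts in pro-B libraries against 92.0 and 95.1 in pre-B libraries. It fell by 3.16 log2 units (SE 0.673; limma, adjusted p = 0.00975), and the adjusted p was 0.0578 without pro-B replicate 2. Gata3 had 73.9 and 68.1 in pro-B libraries against 9.41 and 0 in pre-B libraries, which correspond to 9 reads and 0 reads. Its fall of 4.48 log2 units (SE 1.003; limma, adjusted p = 0.012) is of a gene near the detection limit in pre-B cells, and the adjusted p was 0.0588 or 0.0559 without pro-B replicate 1 or 2. Runx3, used by cytotoxic T cells and other lymphocytes, had 5264 and 5070 in pro-B libraries against 3016 and 2597 in pre-B libraries. It fell by 0.88 log2 units (SE 0.103; limma, adjusted p = 0.000875), with the groups apart and the call kept without any 1 library.

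Bcl11b, which fixes T cell commitment, was detected at the pro-B stage alone, at 27.1 and 32.6 normalized counts from 29 and 35 reads. Both wild-type pre-B libraries held 0 reads, and against a floor of 3 reads per library Bcl11b was at least 9.31-fold lower in pre-B cells. No test is given for this difference, since Bcl11b entered the fit only through the group where it was high and was not tested without either of those 2 libraries. Id3, an inhibitor of E proteins, had 2467 and 2430 in pro-B libraries against 1807 and 1557 in pre-B libraries. It fell by 0.55 log2 units (SE 0.177; limma, adjusted p = 0.0458), close to the threshold. That call was lost without pre-B replicate 1 (adjusted p = 0.0739), pre-B replicate 2 (0.19), pro-B replicate 1 (0.147) or pro-B replicate 2 (0.139), all by limma. Id2, its relative, had 226 and 207 in pro-B libraries against 260.3 and 143 in pre-B libraries, and the groups overlapped (limma, adjusted p = 0.847). Markers of several other cell types were lower in the same pre-B libraries as these 4 T lineage factors. Beside the T cell markers given above, the myeloid markers summed to 33570 and 24513 normalized counts in wild-type pro-B against 15208 and 14887 in pre-B libraries. The NK and innate lymphoid markers summed to 971 and 1073 against 377 and 206. The erythroid markers were also lower, at 16280 and 11895 against 5803 and 8339. The plasmacytoid dendritic markers, led by Cox6a2, went the other way, at 481 and 501 against 2705 and 1717. The stromal markers overlapped, at 586 and 491 against 680 and 421. The part of other cells in the result was not tested; the 2 wild-type pre-B libraries held no Cd3e or Cd3g read.

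**Figure D2:**
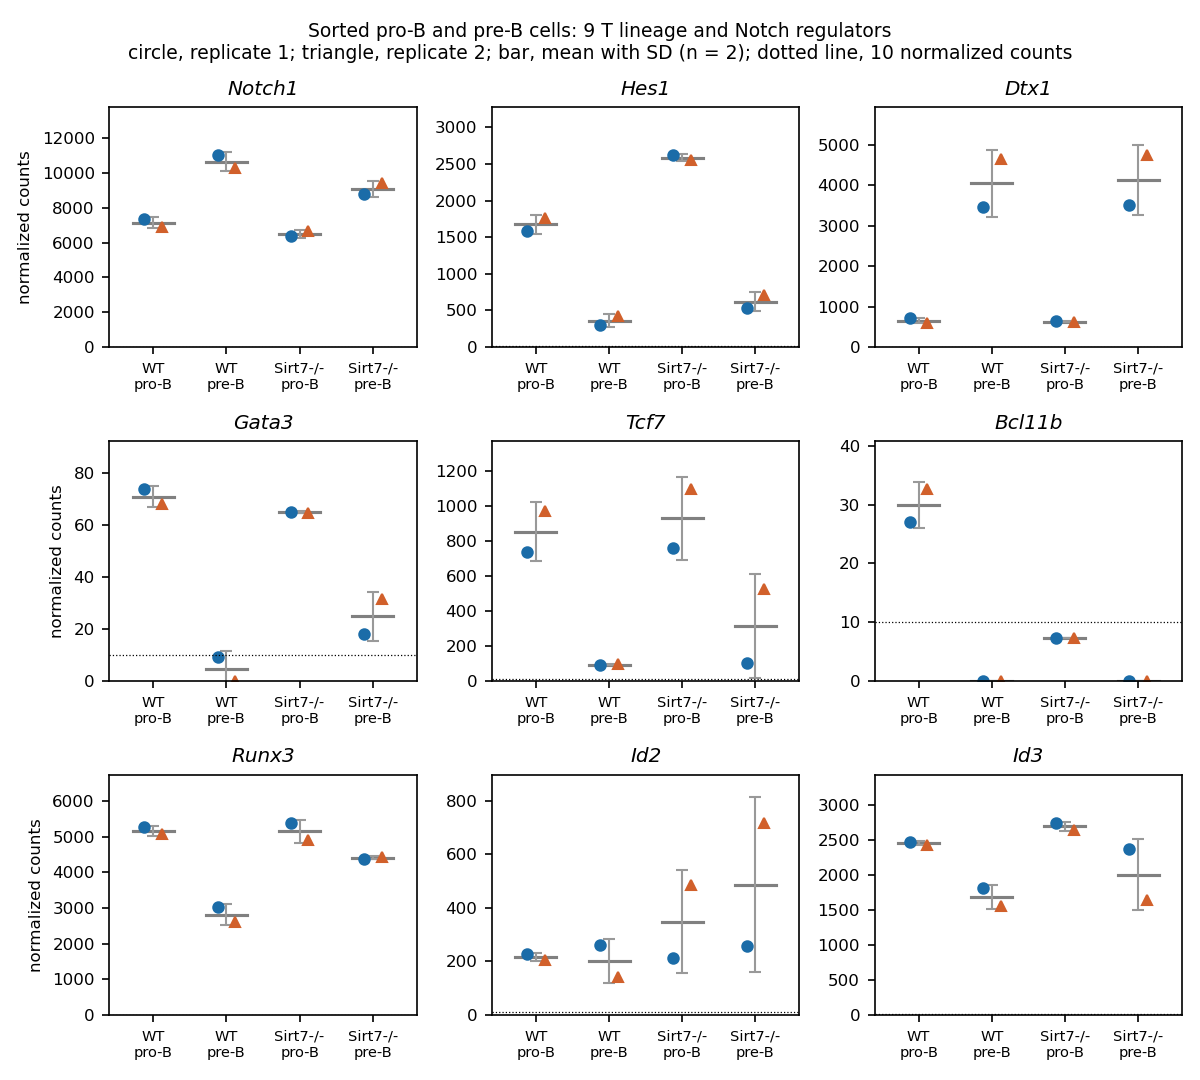
Normalized counts of the 9 genes in sorted cells, on linear axes, 1 panel per gene, for pro-B and pre-B cells of wild-type and Sirt7-/- mice. Circles are mouse 1, triangles mouse 2, bars the mean with SD (n = 2) and the dotted line 10 normalized counts; Dtx1 and Notch1 sit higher in pre-B cells and Hes1 lower, Bcl11b is at 0 in all 4 pre-B libraries, and Tcf7 and Id2 of Sirt7-/- mouse 2 lie above those of mouse 1.

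In Sirt7-/- cells 4 of the 9 genes passed the test between stages, against 35.7% of genes, and their median was -0.45 log2 units beside -0.04 over all genes. Dtx1 rose from 635 and 618 normalized counts to 3512 and 4752, by 2.70 log2 units (SE 0.198; limma, adjusted p = 0.000291). Notch1 rose from 6358 and 6680 to 8772 and 9419, by 0.48 log2 units (SE 0.0854; limma, adjusted p = 0.00599). Hes1 fell by 2.08 log2 units (SE 0.214; limma, adjusted p = 0.000892), from 2624 and 2555 to 529 and 711. Again the groups were apart for all 3 genes. Bcl11b was at 7.34 and 7.38 in Sirt7-/- pro-B cells, from 8 reads each, and at 0 in both pre-B libraries, at least 2.31-fold lower (limma, adjusted p = 0.0156). It entered the fit through the wild-type pro-B libraries, which are not part of this comparison, and its Sirt7-/- values rest on few reads. The Bcl11b call was lost without pro-B replicate 1 (0.0725) or pro-B replicate 2 (0.0732).

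Tcf7 did not pass in Sirt7-/- cells in the unpaired fit, with 763 and 1099 normalized counts in pro-B against 102 and 527 in pre-B libraries (-1.97 log2 units, SE 0.673; limma, adjusted p = 0.0592). The groups were apart, and the pre-B library of mouse 2 lay well above that of mouse 1. With the mouse as a block, Tcf7 passed (limma, adjusted p = 0.024), and without pre-B replicate 2 it fell by 3.15 log2 units (limma, adjusted p = 0.00155). Leaving out both libraries of mouse 2, an alternative chosen after seeing the data, gave a fall of 2.89 log2 units (limma, adjusted p = 0.0095). That leaves 1 Sirt7-/- library per stage, assumed to vary like the wild-type groups, so these p-values hold no Sirt7-/- replicate error. The count of members that passed was then 3 (Tcf7, Dtx1 and Hes1), since Notch1 (adjusted p = 0.0625) and Bcl11b (adjusted p = 0.0812) no longer did. Gata3 was at 65.1 and 64.6 before and at 18.1 and 31.6 after the transition (limma, adjusted p = 0.317). Runx3 was at 5380 and 4912 against 4376 and 4431 (limma, adjusted p = 0.136), and Id3 at 2738 and 2639 against 2366 and 1640 (limma, adjusted p = 0.0905). All 3 were lower in each pre-B library than in each pro-B library, as were 69.8% of all genes when either direction of separation is counted.

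The stage effect was also compared between genotypes by an interaction term. None of the 9 genes passed, against 0.00567% of genes, or 1 gene in all. At an unadjusted p under 0.05 there was 1 member, Runx3 (0.66 log2 units, SE 0.146; limma, adjusted p = 0.648). DESeq2 on the recovered reads called this 1 member (adjusted p = 0.0362), while limma and edgeR called 0. The smaller fall of Runx3 in Sirt7-/- cells thus depends on the test used.

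The rest of the Notch pathway and of the T lineage factors was read from 68 other genes. In wild-type cells 23 of the 63 tested were higher in pre-B cells and 12 lower, and in Sirt7-/- cells 19 were higher and 9 lower. These are 35 and 28 of the 63, beside the 40.2% and 35.7% of all genes given above. Their medians were 0.27 log2 units in both genotypes. The receptor Notch2 rose by 2.19 log2 units in wild-type (SE 0.166; limma, adjusted p = 0.000237) and by 2.52 log2 units in Sirt7-/- cells (SE 0.166; limma, adjusted p = 0.000211). The ligand Dll1 rose by 2.13 and 3.11 log2 units, and Adam10, a protease that cleaves Notch, rose by 1.29 log2 units in wild-type cells. Lfng, a glycosyltransferase that tunes which ligands Notch responds to, fell by 1.84 and 1.09 log2 units. Among Notch targets, Hey1 was at 0 and 7.5 normalized counts in wild-type pro-B libraries and at 65.9 and 71.1 in wild-type pre-B libraries. It was under 10 in every pro-B library and passed the filter on low values only through pre-B libraries, so its calls are no support for a change. Dtx4 fell by 2.14 log2 units in wild-type cells and fell by 1.77 in Sirt7-/- cells. Nrarp, a Notch target that limits the signal, fell by 2.04 log2 units in wild-type cells. Of the 10 listed targets, 8 were tested and 4 passed in each genotype, Hey1 and Hes6 higher and Dtx4 and Heyl lower, a share near that of all genes. The calls of Hes6 and Heyl in both genotypes and of Hey1 in Sirt7-/- cells were lost without 1 library (highest adjusted p = 0.111, 0.106, 0.0865, 0.133 and 0.0863 by limma for Hes6 and Heyl in wild-type cells and Hes6, Heyl and Hey1 in Sirt7-/- cells). Among the other T lineage factors 4 were higher and 5 lower in wild-type cells and 5 higher and 3 lower in Sirt7-/- cells. Tox fell by 5.21 and 3.10 log2 units and Zbtb16 fell by 3.76 log2 units in wild-type cells and fell by 4.17 in Sirt7-/- cells, and Lef1 fell by 2.08 in Sirt7-/- cells. Lef1 was also lower at the later stage in wild-type cells, at 22230 and 27963 normalized counts in pro-B against 5691 and 6339 in pre-B libraries. Ets2 rose by 1.497 and 1.61 log2 units, Zbtb7b, a factor of helper T cells, by 1.83 in Sirt7-/- cells and Satb1 by 0.74 in wild-type cells. The E protein gene Tcf12 rose by 0.90 log2 units in wild-type cells and Tcf3 by 0.47 in Sirt7-/- cells. Further rises were those of Maml1 (0.46 log2 units), a coactivator of Notch, and Cir1 (0.72), a corepressor, in wild-type cells. In Sirt7-/- cells the gamma-secretase genes Psen2 (0.88) and Ncstn (0.76) and the acetyltransferase gene Ep300 (0.68) rose. Wild-type pro-B and pre-B libraries gave 7285 and 6214 against 12075 and 9881 normalized counts for Ncstn. For Ep300 they gave 17585 and 19583 against 24241 and 26353. None of the 63 genes passed the interaction of stage and genotype, so a change given for 1 genotype is not a measured difference between genotypes. Each change given here with a size passed in limma at an adjusted p under 0.05 and kept its call without any 1 library.

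The next question was whether loss of Sirt7 shifts these genes within a stage. In pro-B cells none of the 9 genes passed by limma, edgeR or DESeq2, against 0.0623% of 17649 genes by limma. At an unadjusted p under 0.05 there were 2 members by limma, 2 by edgeR and 1 by DESeq2. The 2 by limma were Hes1, at 2624 and 2555 normalized counts in Sirt7-/- cells against 1583 and 1766 (0.63 log2 units), and Bcl11b, at 7.34 and 7.38 against 27.1 and 32.6 (-1.88 log2 units). Again Bcl11b entered the fit only through the 2 wild-type libraries. For both genes the groups did not overlap, which also held for 39.3% of all genes. The genotypes overlapped for Tcf7, Dtx1, Runx3 and Id2. They were apart for Notch1, Gata3 and Id3 without passing the test.

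In pre-B cells again none of the 9 genes passed, against 0.085% of genes (limma; 4 members at an unadjusted p under 0.05). Runx3 was at 4376 and 4431 normalized counts in Sirt7-/- cells against 3016 and 2597 in wild-type cells (0.65 log2 units, SE 0.103; limma, adjusted p = 0.0981). Hes1 was at 529 and 711 against 296 and 425 (0.79 log2 units). DESeq2, which called 720 genes in all where limma called 15, called 2 members, Runx3 (adjusted p = 5.62e-05) and Hes1 (adjusted p = 0.0284), and edgeR called 0. Notch1 was at 8772 and 9419 against 11042 and 10274 (-0.23 log2 units), and Gata3 at 18.1 and 31.6 against 9.41 and 0 (2.95 log2 units). All 4 genes were apart between genotypes, as were 41.4% of genes. Tcf7 was at 102 and 527 against 92.0 and 95.1, so that 1 library carried its difference (1.30 log2 units; limma, adjusted p = 0.453); without the pre-B library of mouse 1 Tcf7 passed at 2.48 log2 units (limma, adjusted p = 0.0331). Id2 was at 257 and 718 against 260.3 and 143 (1.15 log2 units; limma, adjusted p = 0.444), with the high value from the same mouse. That mouse had the raised NK, erythroid and pre-B T cell sums and the lower pro-B myeloid sum given above. The part of other cells in the Tcf7, Id2 and Gata3 values was not tested. Without both libraries of mouse 2, no member passed in either stage, with 1 Sirt7-/- library left in each, and the Runx3 difference in pre-B cells was 0.64 log2 units (limma, adjusted p = 0.327), that of Tcf7 0.13, that of Id2 0.41 and that of Gata3 2.57. None of the 63 other genes tested passed in either stage (limma; 4 at an unadjusted p under 0.05 in pro-B cells and 9 in pre-B cells).

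The second table asked what wild-type Pax5 and its K198 forms do to these genes in Pax5-/- cells, in which the Pax5 transcript was lower with EV but not at 0, as given above. Gene by gene, Tcf7 rose with Pax5 WT, while Notch1, Runx3, Id2 and Gata3 were lowest with K198R. Of the 9 genes, 8 passed the filter on low values, and Bcl11b, at 0.991 normalized counts or less in all 8 libraries, was not tested. The comparisons with EV share the 2 EV libraries, so they are not independent of each other. With Pax5 WT 3 members passed, against 3.25% of 13345 genes. They were 1 higher and 2 lower, where 2.25% and 1% of genes were called. With K198Q none passed, against 0.922% of genes (limma; 2 members at an unadjusted p under 0.05). With K198R 4 passed, against 9.92%, and all 4 were lower, against 6.05%. With the replicate number as a block in the fit, the counts were 4 for Pax5 WT, 2 for K198Q and 5 for K198R, while the calls over all genes rose to 1343, 363 and 2834; the members gained are given with each gene. Their medians were -0.57, -0.11 and -0.62 log2 units, beside medians of 0.00, -0.01 and 0.01 over all genes tested.

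Notch1 was at 12888 and 12524 normalized counts with EV, 7875 and 8363 with Pax5 WT, 10020 and 11693 with K198Q and 6697 and 5393 with K198R. No groups overlapped, although 42.6% of all genes were apart from EV with Pax5 WT, 34.2% with K198Q and 46.8% with K198R. The order ran from EV through K198Q and Pax5 WT to K198R. Against EV, Notch1 fell by 0.65 log2 units with Pax5 WT (SE 0.125; limma, adjusted p = 0.0361) and fell by 1.08 log2 units with K198R (SE 0.125; limma, adjusted p = 0.00226). Between K198R and K198Q the difference was -0.85 log2 units (SE 0.125; limma, adjusted p = 0.0112), and between K198R and Pax5 WT it was -0.43 log2 units (limma, adjusted p = 0.138). The Pax5 WT call was lost without EV replicate 1 (0.191), EV replicate 2 (0.161), Pax5 WT replicate 1 (0.202) or Pax5 WT replicate 2 (0.192), and that between K198R and K198Q without K198Q replicate 2 (0.0975). The fall with K198R kept its call without any 1 library. The Notch1 window printed above carried peaks of Pax5 WT, K198Q and K198R, at the fold enrichments given above. A further Notch1 intron peak, 33276 bases into the gene, was in both K198R lists (4.57 and 3.54) and in no other list. Binding was not compared between the forms by a test.

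Neither of the Notch targets among the 9 genes passed in these cells. Hes1 was at 486 and 753 normalized counts with EV, 757 and 748 with Pax5 WT, 679 and 728 with K198Q and 901 and 659 with K198R. The replicates of EV and of K198R spanned most of that range, and no comparison passed. Dtx1 was low throughout, at 11.8 and 15.0 with EV, 5.24 and 15.5 with Pax5 WT, 22.2 and 10.8 with K198Q and 19.2 and 7.15 with K198R. All 4 groups overlapped, and 2 of the 8 values were under 10 normalized counts. Of the 10 other listed targets 6 were tested, and 1 passed in 1 of the 6 comparisons: Dtx4, at 1807 and 1751 with EV, 2351 and 2133 with Pax5 WT, 2421 and 2429 with K198Q and 1675 and 1176 with K198R, was lower with K198R than with K198Q (-0.79 log2 units, SE 0.159; limma, adjusted p = 0.0327). That call was lost without 1 library (highest adjusted p = 0.177 by limma).

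Tcf7 differed between the forms. It was at 38.9 and 67.4 normalized counts with EV, 246 and 284 with Pax5 WT, 160.2 and 167 with K198Q and 71.9 and 51.4 with K198R. The Pax5 WT and K198Q libraries were all above those of EV and K198R, which overlapped each other. Tcf7 rose by 2.34 log2 units with Pax5 WT (SE 0.312; limma, adjusted p = 0.00838), while K198Q gave 1.65 log2 units (SE 0.312; limma, adjusted p = 0.0734, and 0.0301 with the replicate block). K198R gave 0.24 log2 units against EV (limma, adjusted p = 0.731), and its difference from Pax5 WT was -2.10 log2 units (SE 0.312; limma, adjusted p = 0.0156) and from K198Q -1.41 log2 units (SE 0.312; limma, adjusted p = 0.0447). These calls rest on few libraries. The rise with Pax5 WT was lost without Pax5 WT replicate 1 (0.0596) or 2 (0.0975). The difference of K198R from Pax5 WT was lost without Pax5 WT replicate 1 (0.0918), Pax5 WT replicate 2 (0.148) or K198R replicate 2 (0.0621), and that from K198Q without K198Q replicate 1 (0.202), K198Q replicate 2 (0.234) or K198R replicate 2 (0.176). Lef1, the close relative of Tcf7, was also highest with Pax5 WT and K198Q but had its lowest mean with K198R, which overlapped EV, at 1092 and 830 normalized counts with EV, 3114 and 3196 with Pax5 WT, 3038 and 2429 with K198Q and 1042 and 611 with K198R.

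**Figure D3:**
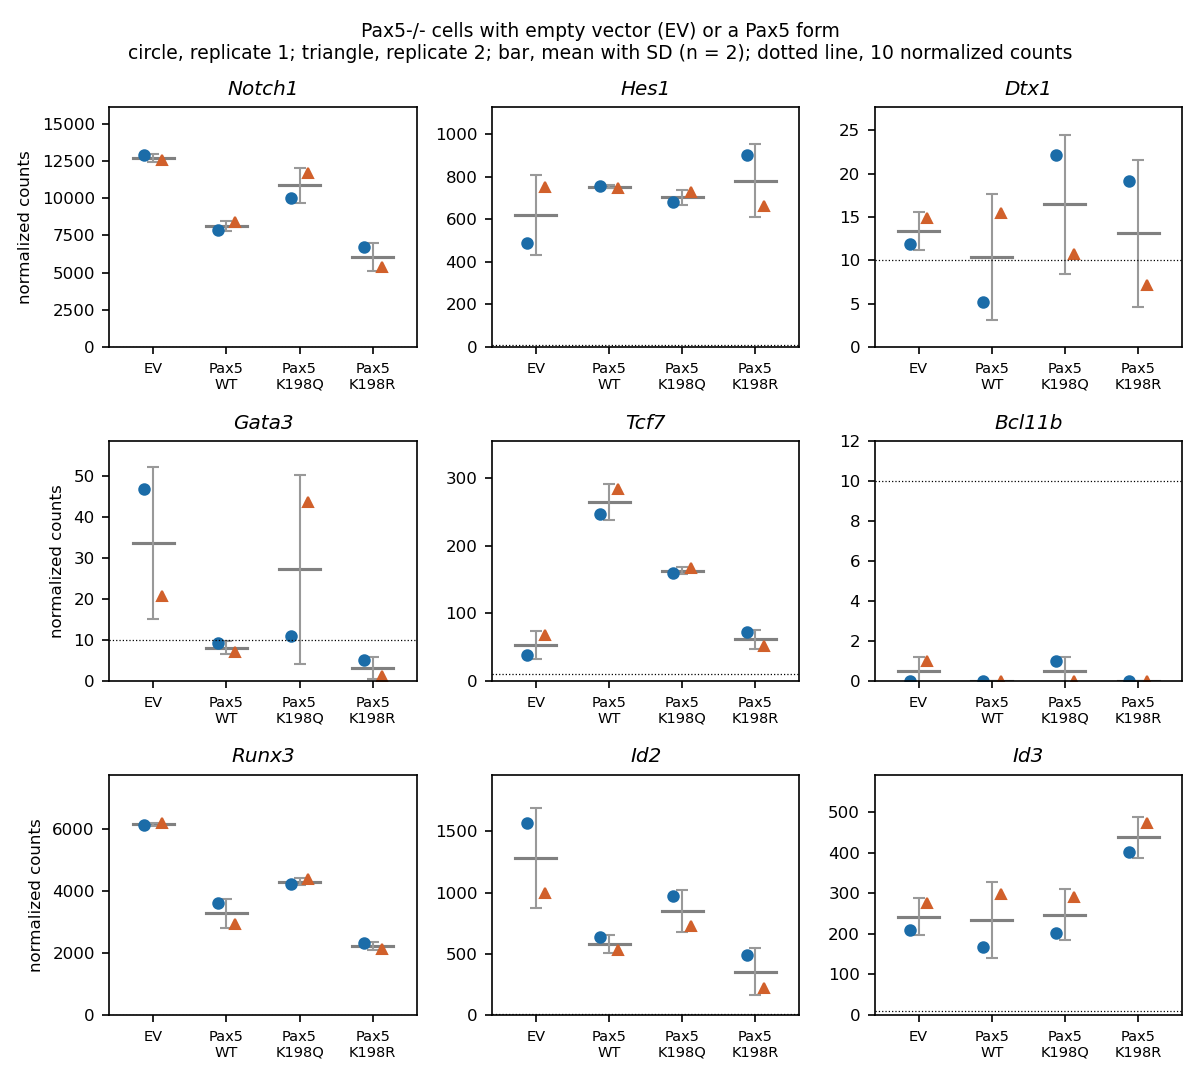
Normalized counts of the 9 genes in Pax5-/- cells with EV, Pax5 WT, K198Q or K198R, on linear axes, 1 panel per gene. Circles are replicate 1, triangles replicate 2, bars the mean with SD (n = 2) and the dotted line 10 normalized counts. Tcf7 is high with Pax5 WT and K198Q. Runx3, Notch1 and Id2 are highest with EV, higher with K198Q than with Pax5 WT, and lowest with K198R.

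Runx3 was at 6140 and 6209 normalized counts with EV, 3619 and 2949 with Pax5 WT, 4232 and 4386 with K198Q and 2325 and 2127 with K198R. The 4 groups did not overlap, in the same order as for Notch1. Runx3 fell by 0.92 log2 units with Pax5 WT (SE 0.113; limma, adjusted p = 0.00618) and by 1.47 log2 units with K198R (SE 0.113; limma, adjusted p = 0.000424). K198R also differed from Pax5 WT by -0.55 log2 units (SE 0.113; limma, adjusted p = 0.0466) and from K198Q by -0.95 log2 units (SE 0.113; limma, adjusted p = 0.00651), and K198Q gave -0.52 log2 units against EV (limma, adjusted p = 0.123, and 0.0266 with the replicate block). The fall with K198R kept its call without any 1 library. The Pax5 WT call was lost without EV replicate 1 (0.0505) or Pax5 WT replicate 2 (0.0508), and that between K198R and K198Q without K198Q replicate 2 (0.0681). The call between K198R and Pax5 WT was lost without Pax5 WT replicate 1 (0.26) or 2 (0.106) or K198R replicate 1 (0.0558) or 2 (0.176).

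Gata3 was at 46.7 and 20.6 normalized counts with EV, 9.19 and 6.98 with Pax5 WT, 11.0 and 43.5 with K198Q and 5.02 and 1.22 with K198R, so that all 4 values with Pax5 WT and K198R were under 10. It fell by 3.14 log2 units with K198R against EV (SE 0.795; limma, adjusted p = 0.0474). With a pseudocount of 10 in place of 1 this was -1.68 log2 units (limma, adjusted p = 0.074), and the call was lost without EV replicate 1 (0.254), EV replicate 2 (0.0956) or K198R replicate 2 (0.196). The K198Q replicates differed widely, and no other Gata3 comparison passed.

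Id2 was at 1569 and 996 normalized counts with EV, 636 and 532 with Pax5 WT, 972 and 726 with K198Q and 489.7 and 217 with K198R. Here too the 4 groups were apart, in the order seen for Notch1 and Runx3. Id2 fell by 1.93 log2 units with K198R (SE 0.378; limma, adjusted p = 0.0178), a call lost without EV replicate 1 (0.117), and gave -1.10 log2 units with Pax5 WT (limma, adjusted p = 0.211, and 0.0117 with the replicate block). Under the block Id2 also passed between K198R and Pax5 WT (-0.83 log2 units; limma, adjusted p = 0.0428) and between K198R and K198Q (-1.36 log2 units; limma, adjusted p = 0.00435). Id3, the other E protein inhibitor, was at 209.7 and 275 with EV, 167 and 299 with Pax5 WT, 203 and 292 with K198Q and 403 and 473 with K198R. Its K198R libraries were above the other 6, and 0.86 log2 units against EV did not pass without the block (limma, adjusted p = 0.144) and passed with it (limma, adjusted p = 0.0103). With the block Id3 also passed for K198R against Pax5 WT (0.96 log2 units; limma, adjusted p = 0.0148) and against K198Q (0.84 log2 units; limma, adjusted p = 0.0174). Id2 and Id3 thus had opposite extremes with K198R, one at its lowest and the other at its highest.

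Markers of other cells moved in the same libraries. The 10 NK and innate lymphoid markers summed to 2214 and 2043 normalized counts with EV, 726 and 654 with Pax5 WT, 1375 and 1199 with K198Q and 478 and 251 with K198R. Il2rb was the most abundant of them in 6 libraries and Klrd1 in the other 2, while the NK receptor gene Ncr1 and the cytotoxic granule gene Gzmb were at 0 in all 8. The 4 plasmacytoid dendritic cell markers summed to 10191 and 7962 with EV, 4539 and 2269 with Pax5 WT, 6899 and 4385 with K198Q and 4484 and 1315 with K198R. The myeloid markers, led by Itgam, summed to 1014 and 732 with EV, 485 and 466 with Pax5 WT, 746 and 717 with K198Q and 659 and 413 with K198R. The T cell markers, of which 14 of 16 were listed, summed to 5377 and 6086 with EV, 4535 and 4968 with Pax5 WT, 5052 and 4890 with K198Q and 3773 and 4057 with K198R, and Lck was the most abundant in all 8. Cd3e was at 0 in 7 libraries and at 1.0 in K198R replicate 1. The B lineage markers went the other way, from 23814 and 28395 with EV to 109912 and 108853 with K198R. That list holds Pax5, the gene on the virus, and without it the sums were 21613 and 26291 with EV and 88751 and 92244 with K198R. Stromal markers summed to 1695 and 1813 with EV and 1085 and 2627 with Pax5 WT. With K198Q they summed to 1393 and 2084, and with K198R to 1140 and 1295. The order EV, K198Q, Pax5 WT, K198R of the NK sums was that of Notch1, Runx3 and Id2, and also, reversed, close to that of the Pax5 transcript. The part of cell mixture and of Pax5 dose in these results was not tested.

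Against the 68 other genes of the pathway and of the T lineage, of which 58 were tested, Pax5 WT moved 2 up and 2 down, K198Q 2 up and none down, and K198R 3 up and 8 down, or 4, 2 and 11 of 58 beside the shares of all genes given above. Runx2, a relative of Runx3, fell by 1.27 log2 units with Pax5 WT (SE 0.120; limma, adjusted p = 0.0018). With K198R the ligand gene Jag2 fell by 1.75 log2 units (SE 0.227; limma, adjusted p = 0.0034). Jag2 was at 6794 and 6549 normalized counts with EV and at 2593 and 1506 with K198R. Ets1, a factor used in both T and B cells, rose by 1.27 log2 units with K198R (SE 0.149; limma, adjusted p = 0.0024), and Zfpm1, which encodes a partner of GATA factors, by 0.79 log2 units (SE 0.101; limma, adjusted p = 0.00322). These 4 calls were kept without any 1 library. None of the 8 tested members and none of these 58 genes passed between K198Q and Pax5 WT, where only 0.0225% of all genes passed (limma; 2 members and 1 of the 58 at an unadjusted p under 0.05). K198R moved 1 of the 58 down against Pax5 WT, and 1 up and 5 down against K198Q. For members, the counts were 2 against Pax5 WT, where 2.87% of genes passed, and 3 against K198Q, where 5.01% passed, and with the replicate block 4 and 5.

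Gata3, Tcf7 and Id2 had the widest range of group means in these cells, and the genes most like them were sought by Pearson's r over the 8 libraries among 9871 genes. Id2 was closest to Cd9 (r = 0.998), Prag1 (0.993) and Gbp11 (0.992). Tcf7 was closest to Hmgn3 (0.994), Ptpn14 (0.984) and Sestd1 (0.979), and Gata3 to Il6st (0.967), Antxr1 (0.953) and Hectd2 (0.952). All values come from the same 8 libraries in 4 groups, so these are descriptions of shared group levels.

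The third table asked whether Sirt7-/- pro-B cells in culture differ from wild-type cells and whether Pax5 WT or K198R alters them. Bcl11b was detected in the wild-type libraries alone. It was at 45.9 and 49.7 normalized counts in wild-type cells with EV and was listed at 0 in all 6 Sirt7-/- libraries, whichever virus they carried. Of the 8 members tested between the EV groups Bcl11b was the 1 called, against 0.557% of 13651 genes. It entered the fit only through the 2 wild-type libraries where it was high and was not tested without either of them, so no p is given and the values stand as a description. The call was also lost without either Sirt7-/- EV library and with only these 2 groups in the fit. In the sorted pro-B cells of the first table Bcl11b was also lower in both Sirt7-/- libraries, although there it was detected in each. Gata3, at 11.8 normalized counts or less in all 8 cultured libraries, was not tested.

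Tcf7 was at 80.2 and 52.3 normalized counts in wild-type cells with EV. In Sirt7-/- cells it was at 41.2 and 31.4 with EV, 24.1 and 21.7 with Pax5 WT and 5.63 and 10.3 with K198R, and no groups overlapped. Its difference between the EV groups was -0.83 log2 units (limma, adjusted p = 0.661) and that of Pax5 WT from EV -0.63 log2 units (limma, adjusted p = 0.732). With K198R Tcf7 fell by 2.09 log2 units against EV (SE 0.437; limma, adjusted p = 0.0372), the 1 member that passed, against 4.83% of genes, while 49.6% of genes were apart between these groups. That call was lost without EV replicate 1 (0.212), EV replicate 2 (0.121), K198R replicate 1 (0.169) or K198R replicate 2 (0.0992), and with only the 2 groups in the fit (0.0782). Dtx1 was at 48.2 and 31.6 with EV, 58.5 and 67.5 with Pax5 WT and 181 and 228 with K198R, so that K198R stood apart (2.35 log2 units; limma, adjusted p = 0.127, and 0.0178 with only the 2 groups in the fit), and at 52.5 and 7.81 in wild-type cells. With Pax5 WT against EV no member passed, where 0.0366% of genes did (limma; 0 members at an unadjusted p under 0.05), and with K198R against Pax5 WT none did, where 0.425% of genes did (limma; 1 member at an unadjusted p under 0.05).

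**Figure D4:**
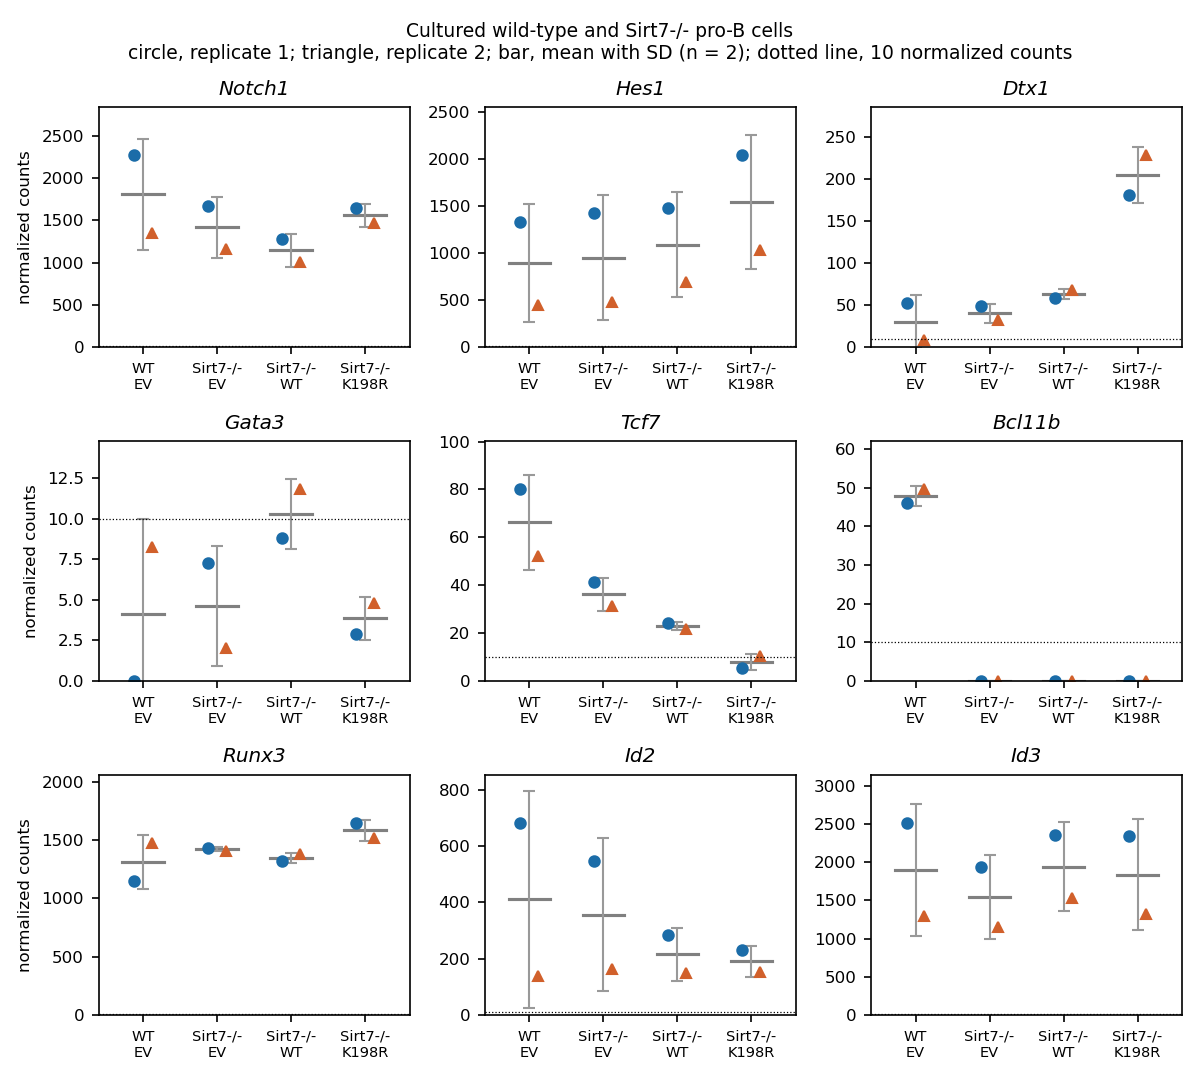
Normalized counts of the 9 genes in cultured pro-B cells, wild type with EV and Sirt7-/- with EV, Pax5 WT or K198R, on linear axes, 1 panel per gene. Circles are replicate 1, triangles replicate 2, bars the mean with SD (n = 2) and the dotted line 10 normalized counts; Bcl11b is above 0 only in the wild-type libraries, and replicate 1 lies above replicate 2 in all 4 groups for Id2, Id3, Hes1 and Notch1.

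For Hes1, Id2, Id3 and Notch1 the replicates differed widely. Hes1 was at 1331, 1418, 1480 and 2038 normalized counts in replicate 1 of the wild-type EV, Sirt7-/- EV, Pax5 WT and K198R groups and at 447, 482, 694 and 1034 in replicate 2. Id2 was at 681, 548, 283 and 231 in replicate 1 and at 139, 164, 148.9 and 153 in replicate 2, in the same order of groups. Id3 was at 2513, 1933, 2353 and 2348 against 1290, 1156, 1531 and 1320, and Notch1 at 2272, 1668, 1282 and 1651 against 1344, 1162, 1009 and 1464. For these 4 genes replicate 1 was above replicate 2 in every group, and the groups overlapped in most comparisons. With the replicate block Hes1 passed for K198R against EV (0.81 log2 units; limma, adjusted p = 0.019, and 0.601 without the block). Runx3 was the most even member, between 1152 and 1647 in the 8 libraries.

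T cell marker sums were lowest in the groups where Tcf7 was lowest. The 11 of 16 markers listed summed to 6565 and 4162 normalized counts in wild-type cells with EV, 5016 and 2537 in Sirt7-/- cells with EV, 2373 and 964 with Pax5 WT and 1596 and 823 with K198R. Lat or Thy1 was the most abundant, and Cd3d was at 1.0 or less in each library. Stromal markers, led by Cxcl12, summed to 4816 and 3461 in wild-type cells with EV, 3157 and 4785 in Sirt7-/- cells with EV, 5619 and 11317 with Pax5 WT and 4239 and 8636 with K198R, and were thus highest in replicate 2 of the last 2 groups. The part of T cell and stromal RNA in the Tcf7 and other results was not tested. Of the 60 other pathway and T lineage genes tested, 1 was lower in the Sirt7-/- than in the wild-type EV group, none passed with Pax5 WT (limma; 16 at an unadjusted p under 0.05), and 2 rose and 2 fell with K198R, beside the shares of all genes given above. The fall of Zfpm1 with K198R was -4.46 log2 units against EV (SE 0.154; limma, adjusted p = 4.05e-05) and -3.20 log2 units against Pax5 WT (SE 0.154; limma, adjusted p = 0.000527), and both calls were kept without any 1 library. Zfpm1 was at 2537 and 2418 normalized counts with EV, 899 and 1195 with Pax5 WT and 113 and 111 with K198R, and at 5556 and 4836 in wild-type cells.

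**Figure D5:**
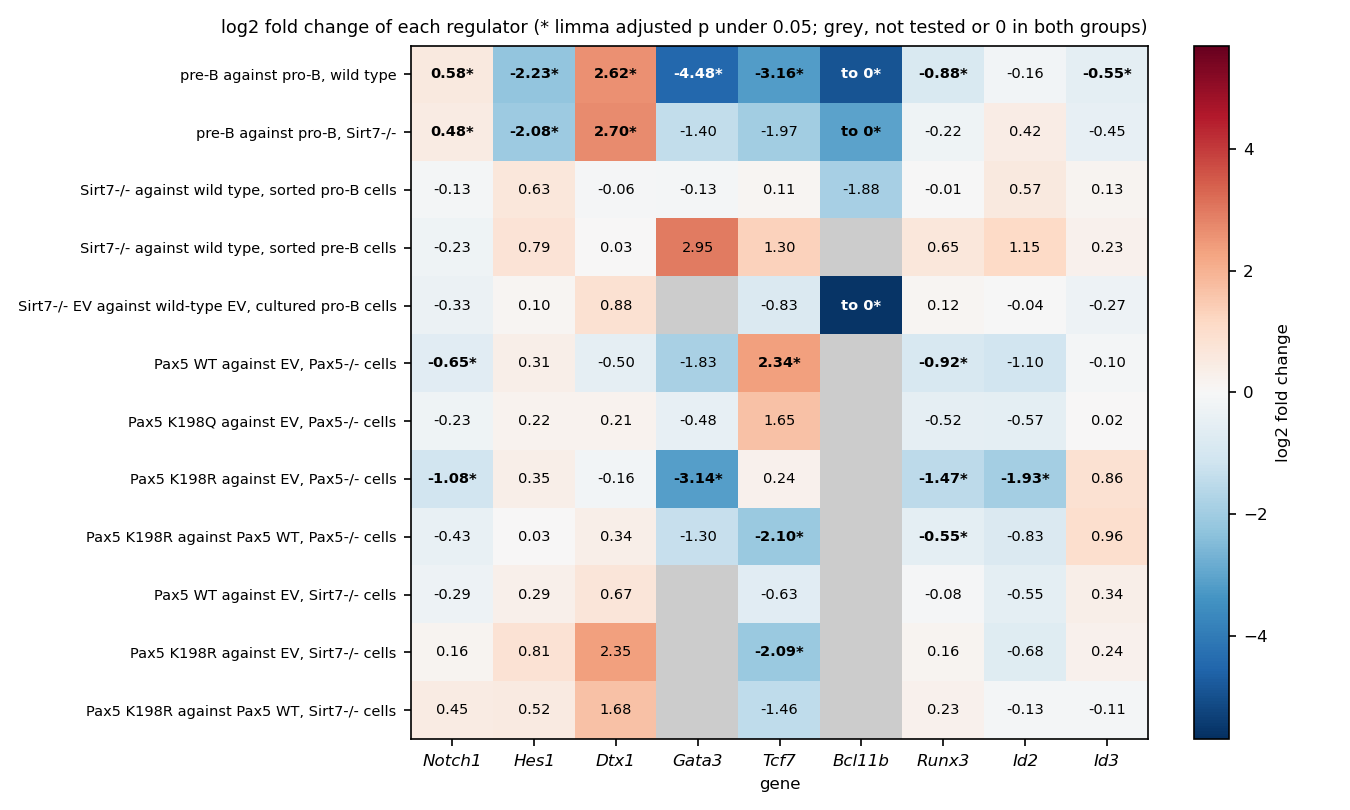
Log2 fold change of the 9 genes in the comparisons named at the left, from blue (lower) to red (higher), with a star where limma gave an adjusted p under 0.05. Grey cells were not tested or were at 0 in both groups, and "to 0" marks Bcl11b where 1 group was at 0, with the shade from a fitted value that depends on the pseudocount and, against wild-type groups, a star that is no support since Bcl11b entered the fit through them; the Dtx1, Hes1 and Notch1 cells carry stars in both stage comparisons, and the Runx3 and Notch1 cells in both Pax5 WT and K198R against EV of Pax5-/- cells.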

How the data were processed

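RNA-seq and Pax5 ChIP-seq files of mouse B cell progenitors were used as deposited. The authors deposited gene counts divided by DESeq2 size factors (normalized counts, a linear signal), which the submitters' processing notes and the study's methods trace to Salmon quantification with GC correction on mm10 transcripts. For ChIP-seq, the authors deposited peaks called with MACS2 per replicate against input after Bowtie2 alignment to mm10, with the fold enrichment at the summit and the -log10 q of each peak. Versions of these tools were not given in the sources used here. The inputs' reads were not used here.

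The 9 genes, the other gene lists and the alternatives were chosen with earlier results of these data known. Per table, genes reaching 10 normalized counts in 2 or more of the 8 libraries were tested (17649, 13345 and 13651 genes) on log2(normalized count + 1) with limma 3.58.1 in R 4.3.3, all 4 groups sharing 1 estimate of the spread, with Benjamini-Hochberg adjustment over all genes tested and a threshold of 0.05. An exact permutation test of 2 against 2 libraries cannot go below p = 0.333 (two-sided). For sorted cells 100% of values were whole reads after rescaling, within 0.001, so edgeR 4.0.16 and DESeq2 1.42.0 were run on them as alternatives. The fit was tested on simulated data: of 200 genes changed 4-fold in the wild-type Pax5 against EV comparison, 100% were recovered over 13345 genes, with 12 false calls. The simulated counts had the same noise setting for every gene and no replicate effect, and genes of low mean were not among those changed. The share recovered is therefore no measure of power in the real libraries. Other alternatives were a pseudocount of 10, no filter, scaling to equal totals, a replicate block, only the groups compared and leaving out each library.

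All members were named. Of each other list, up to 3 called genes with the largest rise and fall in each comparison were taken, and the text prints those that kept their call without any 1 library, besides 3 Notch targets, Dtx4 with K198R and the levels of Lef1. Windows of 300 bases joined peaks whose summits lay within 300 bases. Groups came from sample titles, which for some sorted samples differ from the cell type field. Sorted replicates are mice, and pro-B and pre-B libraries of 1 mouse share its number, so the stage comparisons are paired by animal; the deviations of paired libraries correlated at r = 0.0798 in wild-type and 0.156 in Sirt7-/- mice over 17649 genes. For the transduced cells the study's methods place replicates on different days and give 1 mouse per replicate in mouse experiments, but the sources used here do not say which libraries shared a day or mouse. Deviations of same-numbered libraries correlated at r = 0.264 to 0.383 in Pax5-/- cells and 0.156 to 0.428 in the cultured pro-B cells, above 0.1 for every 2 groups, so blocked values are printed where they change a call. With 2 libraries a group, p-values measure the spread between these libraries. Library preparation kept strand. The authors' own comparisons were not part of these files.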

Additional observations from a re-analysis of the deposited data

Results flagged for a closer look

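Some effects went in opposite directions in 2 settings, with the libraries of each setting apart. With Pax5 WT against EV, Tcf7 was 2.34 log2 units higher in Pax5-/- cells and gave -0.63 log2 units in Sirt7-/- cells, a difference between tables that was not tested. Of 11901 genes tested in both tables, 9.97% lay apart in opposite directions in this way. With K198R against EV, Runx3 gave -1.47 log2 units in Pax5-/- cells and 0.16 in Sirt7-/- cells, as 14.0% of genes did in one direction or the other. With K198R against Pax5 WT, Notch1 gave -0.43 log2 units in Pax5-/- cells and 0.45 in Sirt7-/- cells, and Runx3 gave -0.55 and 0.23, as 6.86% of genes did. None of these 4 differences was tested, since the tables were normalized separately. The Sirt7-/- cells carry their own Pax5 and are of another strain (129Sv) than the Pax5-/- cells (C57BL/6), so strain and genotype cannot be told apart here.

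Between Sirt7-/- and wild-type mice, Gata3 gave -0.13 log2 units in pro-B cells and 2.95 in pre-B cells, with the libraries apart at each stage, as 3.99% of 17499 genes did. The interaction term for Gata3 was 3.08 log2 units and did not pass (limma, adjusted p = 0.909). Without both libraries of Sirt7-/- mouse 2 these values were -0.12, 2.57 and 2.69 log2 units, the last with an adjusted p of 0.997 by limma.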

How the results depend on the processing

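Of 26 member changes that passed in limma, 16 lost the call without 1 library and 10 under another setting, and 0 reversed. The 26 include the Bcl11b calls between stages in wild-type cells and between the cultured genotypes, which are no support for a change. The former was not tested without either wild-type pro-B library and is counted here as kept. Of the 80 changes of other listed genes that passed in limma and that the naming rule took, 47 lost the call without 1 library. Of 95 member values that had not passed, 41 changed sign under at least 1 alternative. Of those printed with their size in the report 1 did so: Tcf7 with K198R against EV in Pax5-/- cells was 0.24 log2 units, and between -0.15 and 0.63 with 1 library left out. Leaving out 1 library, the members that passed numbered 4 to 7 between stages in wild-type cells, 0 to 1 between genotypes in pre-B cells, and, in Pax5-/- cells, 0 to 2 for Pax5 WT and 2 to 4 for K198R against EV, 0 to 3 for K198R against Pax5 WT and 0 to 4 against K198Q. In culture they numbered 0 for Sirt7-/- against wild-type cells and 0 for K198R against EV. DESeq2 on the recovered reads gave 2 members between genotypes in pre-B cells and 1 for the interaction. With only the 2 groups compared in the fit, K198R gave 2 members against EV, 0 against Pax5 WT and 1 against K198Q, and the cultured genotypes gave 0. The calls lost there were Gata3 and Id2 (against EV), Tcf7 and Runx3 (against Pax5 WT), Tcf7 and Notch1 (against K198Q), and Bcl11b, and in Sirt7-/- cells with K198R against EV Tcf7 lost its call and Dtx1 gained one. Without the filter on low values, K198R against Pax5 WT gave 1 member in Pax5-/- cells and K198R against EV gave 0 in Sirt7-/- cells. Within 2 kb of a start site, both lists of Pax5 WT held peaks at 3 members, of K198Q at 0 and of K198R at 4, and all 6 lists at 0. The shares of all protein-coding genes there were 20.5%, 7.10%, 24.4% and 6.90%, in the same order. The cause of each change was not tested, except that leaving out libraries or groups leaves fewer samples and the narrower window admits fewer peaks.

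With a replicate block the members that passed in Pax5-/- cells were, against EV, 4 for Pax5 WT (Id2 gained), 2 for K198Q (Tcf7 and Runx3) and 5 for K198R (Id3 gained), and 4 for K198R against Pax5 WT and 5 for K198R against K198Q (Id2 and Id3 gained in both). In Sirt7-/- cells there were 2 for K198R against EV (Hes1 gained). The block changed no other member call in the transduced cells. In sorted cells the mouse block changed no other member call than that of Tcf7 in Sirt7-/- cells. Groups of 2 limit every estimate of spread, and changes of genes under 10 normalized counts depend on the pseudocount.

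The counts over all genes moved too. Between genotypes limma called 11 genes in pro-B cells, 15 in pre-B cells and 1 for the interaction, and DESeq2 126, 720 and 101; edgeR gave 5 in pre-B cells. The pre-B count was 5 with a pseudocount of 10, 7 with a replicate block, 195 without Sirt7-/- replicate 1 and 0 without both libraries of mouse 2, where the pro-B count was 3. In Pax5-/- cells the block moved the counts against EV from 434 to 1343 for Pax5 WT, from 123 to 363 for K198Q and from 1324 to 2834 for K198R, and those of K198R from 383 to 1004 against Pax5 WT and from 668 to 1749 against K198Q. With only the 2 groups in the fit the K198R counts were 673, 40 and 89, and without the filter 260 for Pax5 WT and 73 for K198Q against EV. In Sirt7-/- cells K198R against EV went from 659 to 1588 with the block and to 423 without the filter. The cultured genotypes went from 76 to 288 with the block, 44 without the filter and 0 with only the 2 groups.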
